A study of Mus musculus with 8 samples.

Results

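Rgs14, Nprl3, Ddx19b, Bod1l, Xxylt1 and Fam107a are 6 of the 10060 genes listed in either of 2 tables of polyadenylated 3′ end counts from mouse brain. They were taken by gene symbol. The first table splits the last (3′-most) exon of 7951 genes into a proximal and a distal cleavage site, and all 6 are in it. The second sets ends at a site in an earlier exon against ends in the last one for 6147 genes, and only Nprl3 and Bod1l of the 6 are in it. All 6 passed the filter on low counts in the first table, and both did in the second. The genes had been picked from this same comparison of genotypes, on summed level. DESeq2 called 25 genes higher (0.318% of those tested) and 1 lower (0.0127%) in Cstf2D50A brains. Of these 26 genes, 16 had no overlap between the genotypes and 15 of those averaged 50 or more reads per library. The 5 with the largest increase and the 1 lower gene are the set. Their levels, sites and shares are therefore given as descriptions without a test. The smallest increase inside was a DESeq2 log2 change of 1.20 for Ddx19b, and the next one outside was 1.18 for Wwtr1.

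Total brain was taken on postnatal day 50 from 5 mice of genotype Cstf2D50A and 3 of genotype wild type, with no treatment. Both genotypes were littermates on the C57BL/6NCrl background, from a line backcrossed over 4 generations and then bred within its own colony. The sources used here do not give which animals shared a litter, their sex or the zygosity of the mutation. Cstf2D50A exchanges the aspartate at residue 50 of CSTF2 for alanine. The question behind the design was whether this exchange alters where transcripts end.

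CSTF2 is the RNA-binding subunit of the cleavage stimulation factor. It contacts GU-rich sequence downstream of a cleavage site and helps to choose among several sites of a gene. A gene with a proximal and a distal site in its last exon makes transcripts with the same coding sequence and a shorter or longer 3′ untranslated region, while a site in an upstream exon can also change the end of the protein. The 6 genes belong to separate pathways. Rgs14 encodes a regulator of G protein signalling known for its high level in hippocampal CA2 neurons. Nprl3 encodes a subunit of GATOR1, which restrains mTORC1 when amino acids are scarce. Ddx19b encodes a DEAD-box helicase that releases mRNA from export factors at the nuclear pore. Bod1l encodes a large protein that protects stalled replication forks in human cells, Xxylt1 a xylosyltransferase that extends O-linked sugars on Notch, and Fam107a an actin-binding protein induced by stress hormones.

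The first table held between 10177902 and 13449054 reads per Cstf2D50A library and between 9616953 and 17530761 per wild type library. The second held 7768925 to 10279635 reads per Cstf2D50A library and 7075383 to 13145966 per wild type library. Levels are given as CPM, read counts put on 1 scale of library size by the TMM method, so they are relative to the other genes of that table. Cstf2 itself had 322 to 428 CPM in Cstf2D50A brains and 333 to 396 CPM in wild type brains (edgeR log2 change -9.44e-05, SE 0.124), and since the exchange changes the coding sequence alone, this level is no check of the genotypes. One library stood apart from its genotype: cerebellar granule cell markers averaged 7.08 log2 CPM in Cstf2D50A mouse 5, 5.49 to 5.53 in Cstf2D50A mice 1 to 4 and 7.03 to 7.25 in wild type mice. The changes in level, at single sites of the first table and in usage are therefore also given without that library.

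In summed level, 5 of the genes were higher and Fam107a was lower in Cstf2D50A brains, and the genotypes did not overlap for any of the 6. Over all 7876 genes tested, 4.76% had no overlap in either direction, and as the absence of overlap was part of how the genes had been chosen, nothing is read from their count. By edgeR's quasi-likelihood test, 0 of 7876 genes were called in either direction (0%), with a smallest adjusted p of 0.343, while 574 genes (7.29%) were higher and 555 (7.05%) lower at an unadjusted p under 0.05. The calls that defined the set were therefore DESeq2's alone. In whole brain RNA, fewer cells of a type and less RNA per cell cannot be told apart.

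**Figure D1:**
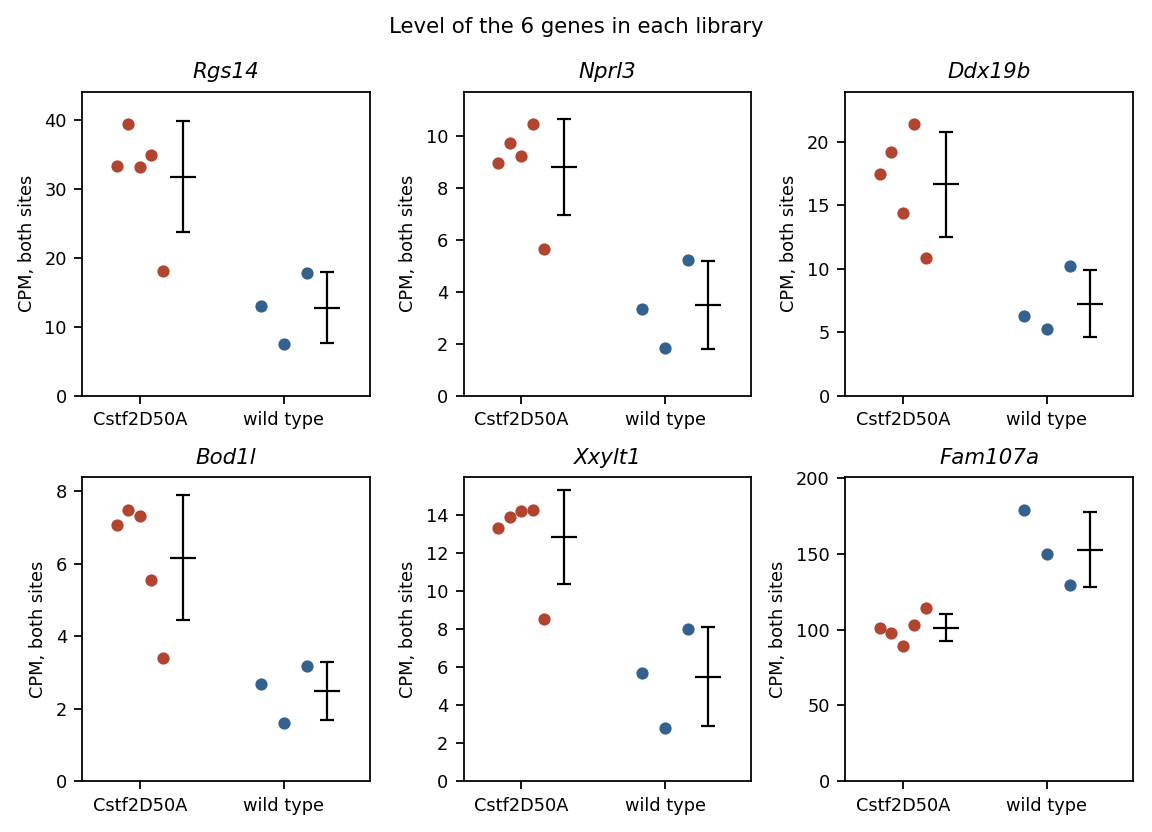
Summed level of each gene in CPM (linear axis, both sites of the first table) in each library, 1 panel per gene, with Cstf2D50A on the left and wild type on the right, and the mean and SD of each genotype. Cstf2D50A mouse 5 is the closest of its genotype to the wild types in all 6 panels, and wild type mouse 3 the closest of the wild types to Cstf2D50A.

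Rgs14 acts on G alpha subunits of the Gi class and also binds Ras and Raf proteins. It had 33.3, 39.4, 33.1, 35.0 and 18.1 CPM in Cstf2D50A mice 1 to 5, against 13.0, 7.53 and 17.8 CPM in wild type mice 1 to 3. Cstf2D50A mice 1 to 4 lay close together and well above the wild types, while mouse 5 was only just above wild type mouse 3. The means were 31.8 ± 8.04 CPM in Cstf2D50A and 12.8 ± 5.12 CPM in wild type (SD, n = 5 and 3), and the edgeR log2 change was 1.32 (SE 0.313). It was 1.47 (SE 0.256) without Cstf2D50A mouse 5. The gap between Cstf2D50A mouse 5 and wild type mouse 3 was 0.346 CPM, below the counting error of that gap, 1.75 CPM.

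The proximal Rgs14 site, at position 55486048, carried the difference, with the distal site 282 bases further on at 55486330. The proximal site had 31.5, 36.9, 31.3, 34.0 and 16.7 CPM in Cstf2D50A mice 1 to 5 and 11.0, 5.74 and 16.9 CPM in wild type mice 1 to 3, a log2 change of 1.43 (SE 0.353). The distal site had 1.79, 2.50, 1.83, 0.924 and 1.43 CPM in Cstf2D50A mice and 2.01, 1.79 and 0.819 CPM in wild type mice, a log2 change of 0.14 (SE 0.378). The genotypes overlapped at both sites, at the proximal one only through Cstf2D50A mouse 5, which lay just under wild type mouse 3. Of the difference in mean CPM, 99.2% was at the proximal site. The distal site held 5.38, 6.34, 5.53, 2.64 and 7.92% of the Rgs14 reads in Cstf2D50A mice, against 15.5, 23.8 and 4.61% in wild type mice. Wild type mice 1 and 2 had the highest distal shares, while wild type mouse 3 lay inside the Cstf2D50A range. The change in usage, which is the log2 change of distal relative to proximal reads within a library, was -1.42 (SE 0.568). It moved to -0.80 without wild type mouse 2 and to -2.12 without wild type mouse 3.

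Nprl3 showed the same kind of pattern at a lower level. It had 8.96, 9.74, 9.23, 10.4 and 5.65 CPM in Cstf2D50A mice 1 to 5, against 3.35, 1.85 and 5.24 CPM in wild type mice 1 to 3. Mouse 5 was again the lowest Cstf2D50A library and wild type mouse 3 the highest wild type one. The means were 8.81 ± 1.85 CPM in Cstf2D50A and 3.48 ± 1.70 CPM in wild type (SD, n = 5 and 3), and the edgeR log2 change was 1.36 (SE 0.329), or 1.48 (SE 0.300) without Cstf2D50A mouse 5. The counts behind these levels were modest, at 63 to 147 reads per Cstf2D50A library and 30 to 64 per wild type library.

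At Nprl3 too the proximal site carried the difference. It lies at position 32132669, and the distal site lies 626 bases away at 32132043. The proximal site had 7.17, 8.85, 8.35, 8.67 and 3.95 CPM in Cstf2D50A mice and 1.68, 0.657 and 3.60 CPM in wild type mice, a log2 change of 1.93 (SE 0.472). The distal site had 1.79, 0.885, 0.875, 1.78 and 1.70 CPM in Cstf2D50A mice and 1.68, 1.20 and 1.64 CPM in wild type mice, a log2 change of -0.08 (SE 0.335). The proximal values did not overlap, and the distal values did. The distal share was 20, 9.09, 9.48, 17.0 and 30.2% in Cstf2D50A mice, against 50, 64.5 and 31.25% in wild type mice. Each Cstf2D50A share was below each wild type share, but by only about 1 percentage point between Cstf2D50A mouse 5 (Wilson 95% interval 20.2 to 42.4%) and wild type mouse 3 (21.2 to 43.4%). The change in usage was -2.20 (SE 0.593), and -2.45 without Cstf2D50A mouse 5.

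The second table adds reads of Nprl3 that end elsewhere in the same exon. Both sites of that table together had 18.9, 19.9, 18.8, 21.4 and 17.0 CPM in Cstf2D50A mice and 9.38, 12.1 and 13.0 CPM in wild type mice, again without overlap (4.78% of 6001 genes had none), and with a log2 change of 0.73 (SE 0.155). This is a smaller change than in the first table, from 144 to 229 reads per Cstf2D50A library and 63 to 152 per wild type library. Of the reads in the Nprl3 3′-most exon, 34.9, 33.9, 31.0, 32.6 and 52.3% in Cstf2D50A mice and 49.2, 76.3 and 41.3% in wild type mice lay at neither listed site. Over all libraries this share was 41.8%, at the 97.2 percentile of the 4038 genes in both tables, whose median was 4.54%. These other ends had 6.65 ± 0.952 CPM in Cstf2D50A and 5.72 ± 1.98 CPM in wild type (SD, n = 5 and 3), so the genotypes differed there by less than the wild type SD. The upstream exon of Nprl3 had little, at 0.914 ± 0.407 CPM in Cstf2D50A and 1.15 ± 0.542 CPM in wild type (log2 change -0.41, SE 0.441). The 3′-most exon held 95.1 ± 2.45% of the reads in Cstf2D50A and 90.2 ± 3.77% in wild type, with overlap, and the change in usage was 1.20 (SE 0.492). The 2 tables share their reads, so the second is no independent measurement.

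Ddx19b was the gene whose distal site alone differed. Its sum was 17.5, 19.2, 14.4, 21.4 and 10.8 CPM in Cstf2D50A mice 1 to 5, against 6.26, 5.26 and 10.2 CPM in wild type mice 1 to 3. The order of the lowest libraries was as for Rgs14 and Nprl3. The means were 16.7 ± 4.14 CPM in Cstf2D50A and 7.25 ± 2.63 CPM in wild type (SD, n = 5 and 3), with an edgeR log2 change of 1.20 (SE 0.280), or 1.32 (SE 0.248) without Cstf2D50A mouse 5.

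The Ddx19b sites, at 113531912 and 113527086, are 4826 bases apart, further than in 94.4% of the listed genes. The distal site had 14.1, 15.9, 10.3, 17.8 and 5.74 CPM in Cstf2D50A mice and 2.01, 0.717 and 6.55 CPM in wild type mice, a log2 change of 2.06 (SE 0.599). The proximal site had 3.40, 3.30, 4.06, 3.55 and 5.11 CPM in Cstf2D50A mice and 4.25, 4.54 and 3.68 CPM in wild type mice, a log2 change of -0.10 (SE 0.218). At the distal site Cstf2D50A mouse 5 was below wild type mouse 3, and at the proximal site the genotypes were mixed. Without wild type mouse 3 the distal log2 change was 3.34 (SE 0.550). The distal share was 80.5, 82.8, 71.8, 83.4 and 52.9% in Cstf2D50A mice, against 32.1, 13.6 and 64% in wild type mice, and the change in usage was 2.47 (SE 0.754). The shares overlapped through the same pair of animals. The paralog Ddx19a, the next gene on the chromosome, had 7.07 ± 0.948 CPM in Cstf2D50A and 5.89 ± 1.65 CPM in wild type (log2 change 0.26, SE 0.207, edgeR adjusted p = 0.489). In the second table Ddx19a had 16.9 ± 2.91 CPM in Cstf2D50A and 19.1 ± 0.838 CPM in wild type (log2 change -0.18, SE 0.165). The sources used here do not say how reads shared by the paralogs were counted.

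**Figure D2:**
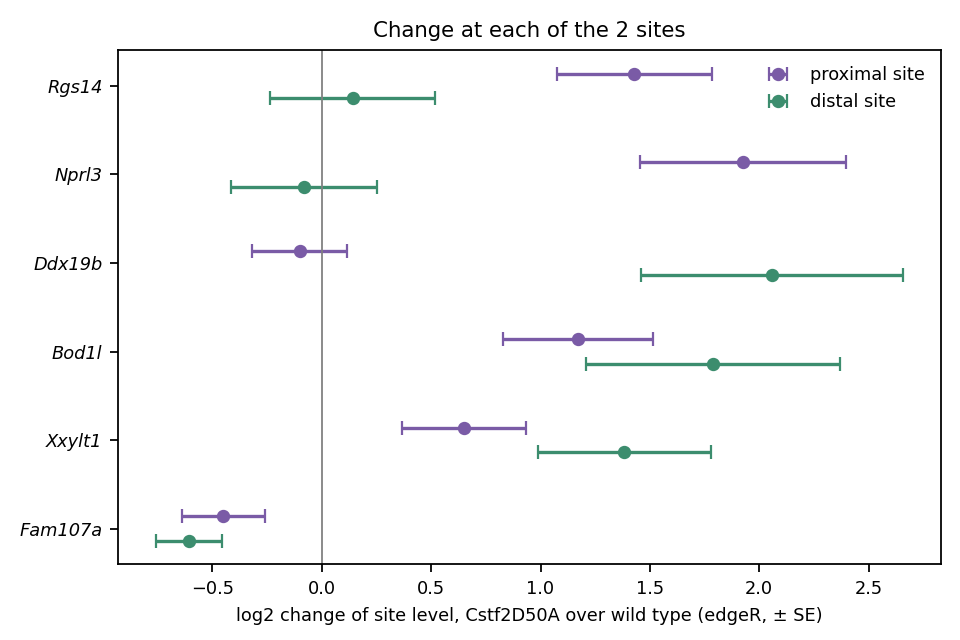
edgeR log2 change of Cstf2D50A over wild type, with its SE, at the proximal and at the distal site of each gene. Rgs14 and Nprl3 are near 0 at the distal site (0.14 and -0.08), Ddx19b is near 0 at the proximal site (-0.10), and Bod1l, Xxylt1 and Fam107a have the same sign at both sites.

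Bod1l had the lowest level of the set and differed at both sites. Its sum was 7.08, 7.49, 7.32, 5.54 and 3.41 CPM in Cstf2D50A mice 1 to 5, against 2.68, 1.61 and 3.19 CPM in wild type mice 1 to 3, from 38 to 93 reads in Cstf2D50A libraries and 24 to 39 in wild type libraries. Once more mouse 5 was close to wild type mouse 3, with a gap of 0.214 CPM and a counting error of 0.753 CPM. The means were 6.17 ± 1.72 CPM in Cstf2D50A and 2.50 ± 0.806 CPM in wild type (SD, n = 5 and 3), with an edgeR log2 change of 1.32 (SE 0.320), or 1.48 (SE 0.256) without Cstf2D50A mouse 5.

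The proximal Bod1l site at 42178950 and the distal one at 42178777 are only 173 bases apart. The proximal site had 5.10, 5.31, 5.97, 2.70 and 2.78 CPM in Cstf2D50A mice and 2.24, 1.43 and 2.21 CPM in wild type mice, a log2 change of 1.17 (SE 0.344) without overlap. The distal site had 1.98, 2.17, 1.35, 2.84 and 0.628 CPM in Cstf2D50A mice and 0.447, 0.179 and 0.982 CPM in wild type mice, a log2 change of 1.79 (SE 0.582) with overlap. The proximal site thus held 65.7% and the distal site 34.3% of the difference in mean CPM. The distal share was 29.0 ± 13.4% in Cstf2D50A and 19.5 ± 10.1% in wild type (SD, n = 5 and 3), a difference smaller than either SD, and Cstf2D50A mouse 4 had the highest at 51.3% (Wilson 95% interval 40.4 to 62.1%). The change in usage was 0.66 (SE 0.628), and it was 0.28 without Cstf2D50A mouse 4 and 1.31 without wild type mouse 3.

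In the second table Bod1l differed in its 3′-most exon more than in the upstream exon. The 3′-most exon had 9.84, 10.2, 10.3, 7.38 and 4.84 CPM in Cstf2D50A mice and 3.87, 2.32 and 4.44 CPM in wild type mice, with no overlap (5.31% of all sites of that table had none) and a log2 change of 1.28 (SE 0.307). The upstream exon had 6.35, 7.71, 8.78, 8.88 and 9.67 CPM in Cstf2D50A mice and 5.96, 8.54 and 6.71 CPM in wild type mice, a log2 change of 0.22 (SE 0.207). Cstf2D50A mouse 5 had the highest upstream value and the lowest 3′-most exon value of its genotype. The 3′-most exon held 50.1 ± 10.9% of the reads in Cstf2D50A and 33.5 ± 10.6% in wild type (SD, n = 5 and 3), with overlap (5.88% of genes had none), and the change in usage was 1.06 (SE 0.437). It was 0.62 without wild type mouse 2. The summed level of that table had a log2 change of 0.66 (SE 0.147), smaller than in the first table. Of the reads in the exon, 4.31% lay at neither listed site.

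**Figure D3:**
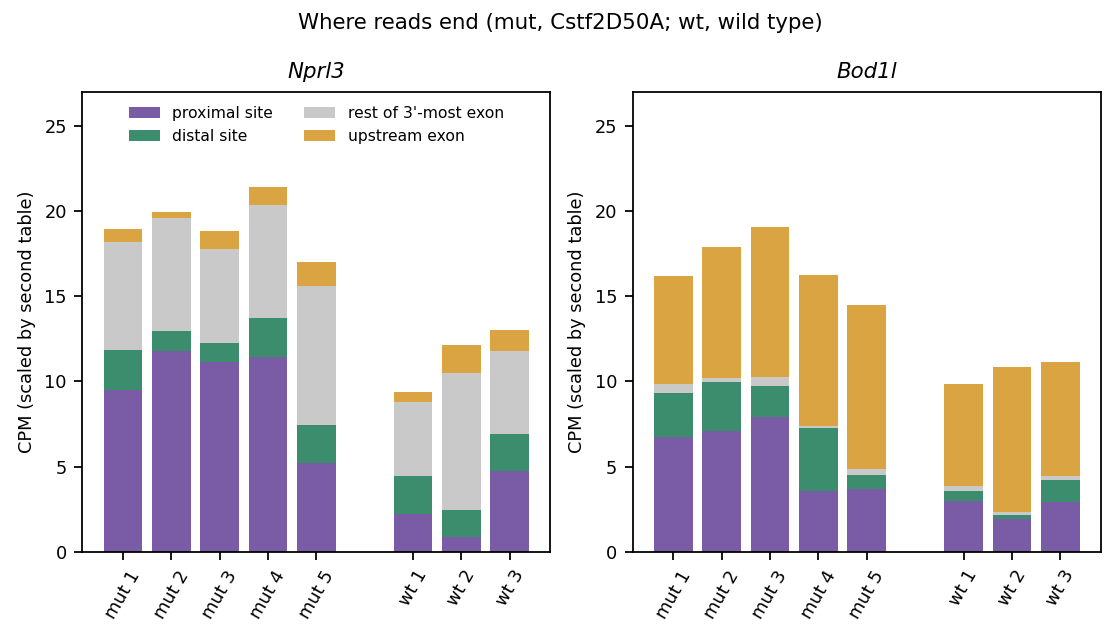
CPM, scaled by the second table, of Nprl3 and Bod1l reads by where they end (upstream exon, proximal site, distal site, elsewhere in the 3′-most exon), stacked for each library with Cstf2D50A mice left of wild type mice. The proximal part of Nprl3 averages 9.79 CPM in Cstf2D50A and 2.62 CPM in wild type, while the upstream part of Bod1l averages 8.28 CPM in Cstf2D50A and 7.07 CPM in wild type.

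Xxylt1 differed mainly at its distal site. Its sum was 13.3, 13.9, 14.2, 14.3 and 8.52 CPM in Cstf2D50A mice 1 to 5, against 5.70, 2.81 and 8.02 CPM in wild type mice 1 to 3. Cstf2D50A mice 1 to 4 lay within about 1 CPM of each other, and mouse 5 stood closer to wild type mouse 3 than to any of them. The means were 12.9 ± 2.46 CPM in Cstf2D50A and 5.51 ± 2.61 CPM in wild type (SD, n = 5 and 3), with an edgeR log2 change of 1.24 (SE 0.318), or 1.36 (SE 0.295) without Cstf2D50A mouse 5.

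The Xxylt1 sites, at 30955713 and 30955236, are 477 bases apart. The distal site had 11.0, 12.3, 11.5, 12.7 and 6.37 CPM in Cstf2D50A mice and 4.25, 1.67 and 6.63 CPM in wild type mice, a log2 change of 1.38 (SE 0.394) with overlap between Cstf2D50A mouse 5 and wild type mouse 3. The proximal site had 2.27, 1.61, 2.78, 1.56 and 2.15 CPM in Cstf2D50A mice and 1.45, 1.14 and 1.39 CPM in wild type mice, a log2 change of 0.65 (SE 0.284) with a small gap between the genotypes. The distal site held 89.8% of the difference in mean CPM. The distal share was 83.1 ± 5.94% in Cstf2D50A and 72.2 ± 11.7% in wild type (SD, n = 5 and 3), and the lowest, in wild type mouse 2, was 59.6% (Wilson 95% interval 45.3 to 72.4%). The change in usage was 0.89 (SE 0.474), and 0.44 without that animal.

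Fam107a was the lower gene and the most deeply read, with 1074 to 1453 reads per Cstf2D50A library and 1580 to 2510 per wild type library. It had 101, 98.0, 89.2, 103 and 114 CPM in Cstf2D50A mice 1 to 5, against 179, 150.0 and 129 CPM in wild type mice 1 to 3. Cstf2D50A mouse 5 was the highest of its genotype and wild type mouse 3 the lowest of the wild types, with 15.4 CPM between them and a counting error of 4.56 CPM, the one gene of the 6 whose gap was above its counting error. The means were 101 ± 8.97 CPM in Cstf2D50A and 153 ± 24.9 CPM in wild type (SD, n = 5 and 3), with an edgeR log2 change of -0.59 (SE 0.137), or -0.64 (SE 0.139) without Cstf2D50A mouse 5.

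Both Fam107a sites were lower in Cstf2D50A, with little change in share. The distal site at 9128788 had 92.0, 89.9, 78.8, 91.4 and 103 CPM in Cstf2D50A mice and 164, 139 and 113 CPM in wild type mice, a log2 change of -0.61 (SE 0.151) without overlap. The proximal site at 9129461, 673 bases away, had 9.34, 8.13, 10.3, 11.9 and 11.2 CPM in Cstf2D50A mice and 14.8, 11.2 and 15.9 CPM in wild type mice, a log2 change of -0.45 (SE 0.189) with overlap. The distal share was 89.9 ± 1.44% in Cstf2D50A and 90.7 ± 2.59% in wild type (SD, n = 5 and 3), and the change in usage was -0.15 (SE 0.233).

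Set side by side, 1 site held 89% or more of the difference in mean CPM in 5 of the 6 genes: the proximal one at Rgs14 and Nprl3, and the distal one at Ddx19b, Xxylt1 and Fam107a. This was not counted over all genes. A site with most of a gene's reads also holds most of an even change. At Fam107a the distal share was 89.9% in Cstf2D50A and 90.7% in wild type, and both sites were lower (-0.61 and -0.45). The distal share of Xxylt1 was already 72.2% in wild type. Of the 12 single sites, 4 had no overlap between the genotypes (4.62% of all sites had none), namely the proximal sites of Nprl3, Bod1l and Xxylt1 and the distal site of Fam107a. The sites are parts of sums chosen for having no overlap, so nothing is read from that count. Of the 6 distal shares, only that of Nprl3 did not overlap (4.15% of all genes). The change in usage was negative at Rgs14, Nprl3 and Fam107a and positive at Ddx19b, Bod1l and Xxylt1. By its test, edgeR called 0 of 7876 genes in usage (0%), with a smallest adjusted p of 0.337. At an unadjusted p under 0.05, 684 genes (8.68%) had a higher and 335 (4.25%) a lower distal share in Cstf2D50A. The distances between the sites, with a median of 551.5 bases over the 6 genes and 629 over all genes, spanned from the 27.7 to the 94.4 percentile.

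**Figure D4:**
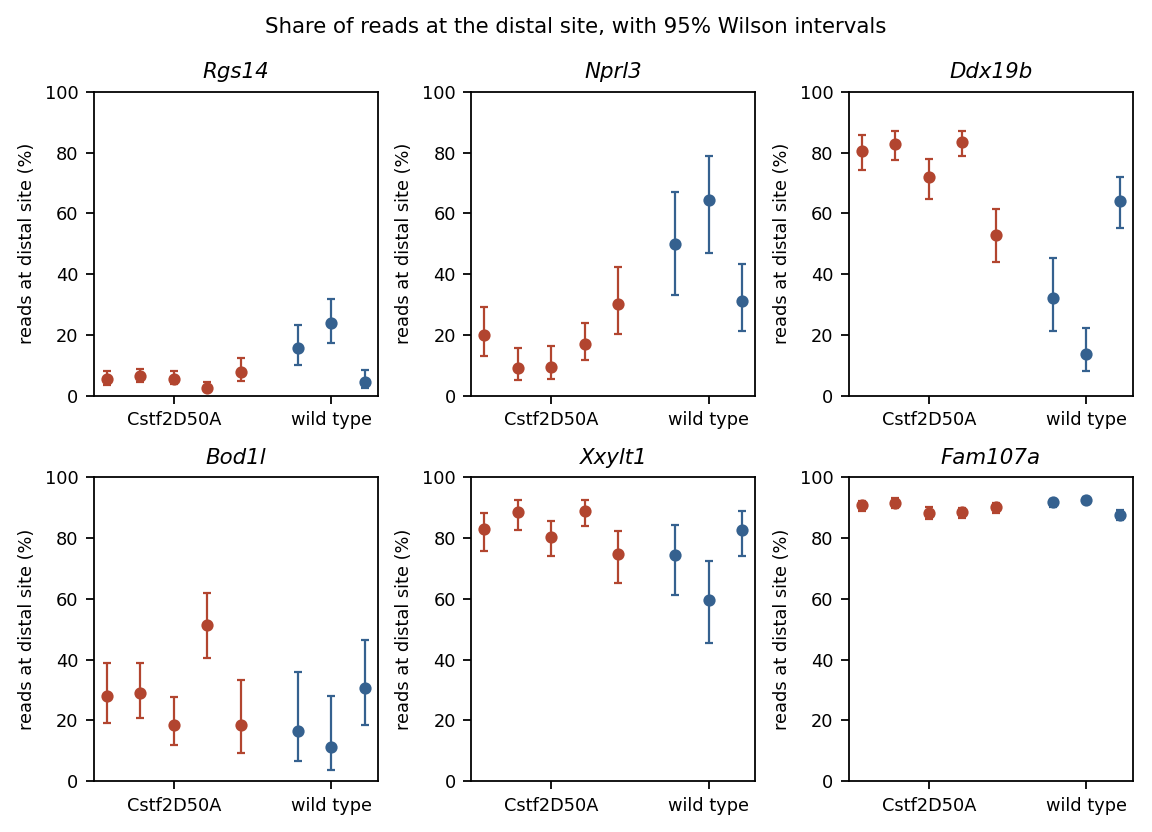
Percent of reads at the distal site in each library with its Wilson 95% interval, 1 panel per gene, Cstf2D50A left of wild type. The Nprl3 shares run from 9.09 to 30.2% in Cstf2D50A and from 31.25 to 64.5% in wild type, while Fam107a stays between 87.7 and 92.5% in all libraries.

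Cstf2D50A mouse 5 lay nearest to the wild types in all 6 genes, so each change in level grew without it. With 1 library left out, the smallest changes of the 5 higher genes came without wild type mouse 2. They were 1.03 for Rgs14, 1.01 for Nprl3, 0.99 for Ddx19b, 1.05 for Bod1l and 0.89 for Xxylt1. Fam107a was smallest at -0.48, without wild type mouse 1. The largest came without wild type mouse 3, at 1.54 to 1.81 for the higher genes and -0.70 for Fam107a. Without Cstf2D50A mouse 5 the site pattern had the same signs. The proximal log2 change was 1.58 for Rgs14, 2.09 for Nprl3, -0.22 for Ddx19b, 1.299 for Bod1l, 0.64 for Xxylt1 and -0.49 for Fam107a. The distal log2 change was 0.19 for Rgs14, -0.15 for Nprl3, 2.25 for Ddx19b, 2.01 for Bod1l, 1.53 for Xxylt1 and -0.66 for Fam107a. The change in usage without that library was -1.56 for Rgs14, 2.78 for Ddx19b, 0.79 for Bod1l, 1.07 for Xxylt1 and -0.16 for Fam107a, beside the -2.45 of Nprl3. In the second table the change in level was then 0.77 for Nprl3 and 0.70 for Bod1l, and the change in usage 1.46 and 1.29.

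The order of the libraries was shared to a large extent. In all 5 higher genes the 4 lowest libraries were, from the lowest up, wild type mouse 2, wild type mouse 1, wild type mouse 3 and Cstf2D50A mouse 5. In 5 of the 6 genes the gap between the genotypes was below the counting error of its nearest pair. In the mean of their log2 CPM, cerebellar granule cell markers split the libraries in a like way, with Cstf2D50A mouse 5 beside the wild types, but their summed level did not. Of 17 listed markers 13 were measured, and their sum was 4878 to 6275 CPM in Cstf2D50A mice 1 to 4, 8009 CPM in Cstf2D50A mouse 5 and 5986 to 8616 CPM in wild type mice, so that Cstf2D50A mice 1 to 4 and the wild types overlapped. Most of the sum was Slc17a7, a vesicular glutamate transporter also made in cortex, with 4687 ± 733 CPM in Cstf2D50A and 4320 ± 1661 CPM in wild type (SD, n = 5 and 3, edgeR log2 change 0.12, SE 0.234). The 10 measured Purkinje cell markers summed to 1125 to 1185 CPM in Cstf2D50A mice 1 to 4, 1588 CPM in Cstf2D50A mouse 5 and 1549 to 1598 CPM in wild type mice. The 16 cortex and hippocampus markers summed to 8655 to 10464 CPM in Cstf2D50A mice and 5332 to 9315 CPM in wild type mice. In mean log2 CPM these markers split the libraries too, in the opposite direction to the granule cell markers. They had 6.88 to 6.96 in Cstf2D50A mice 1 to 4, 6.67 in Cstf2D50A mouse 5 and 6.01 to 6.76 in wild type mice. No measured marker of these lists was at 0 in any library.

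With the mean log2 CPM of the granule cell markers as a covariate in the edgeR fit, the log2 changes in level kept their signs and shrank. They were 0.49 (SE 0.369) for Rgs14, 0.69 (SE 0.438) for Nprl3, 0.54 (SE 0.351) for Ddx19b, 0.47 (SE 0.401) for Bod1l, 0.63 (SE 0.431) for Xxylt1 and -0.38 (SE 0.216) for Fam107a. Each was less than 2 of its SE from 0, but each SE was also larger than without the covariate (0.369 and 0.313 for Rgs14). No test is read from this. At the site that held most of the difference, the log2 change with the covariate was 0.55 (SE 0.428) at the proximal site of Rgs14 and 0.98 (SE 0.605) at that of Nprl3. It was 0.83 (SE 0.749) at the distal site of Ddx19b, 0.60 (SE 0.526) at that of Xxylt1 and -0.39 (SE 0.241) at that of Fam107a. For Bod1l it was 0.55 (SE 0.4999) at the proximal and 0.21 (SE 0.843) at the distal site. These were all nearer 0 than without the covariate, whereas the proximal site of Xxylt1 stood at 0.73 (SE 0.455).

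The changes in usage were nearer 0 with the covariate as well. They were -0.72 (SE 0.862) for Rgs14, -0.94 (SE 0.776) for Nprl3, 0.85 (SE 0.936) for Ddx19b, 0.04 (SE 0.7099) for Xxylt1 and -0.08 (SE 0.375) for Fam107a, while Bod1l changed sign, at -0.28 (SE 1.07). In the second table the change in level was 0.55 (SE 0.227) for Nprl3 and 0.45 (SE 0.214) for Bod1l, and the change in usage was 0.42 (SE 0.677) and 0.17 (SE 0.589). The covariate separates Cstf2D50A mice 1 to 4 from all wild types, so genotype and granule cell marker level cannot be told apart in 7 of the 8 libraries.

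**Figure D5:**
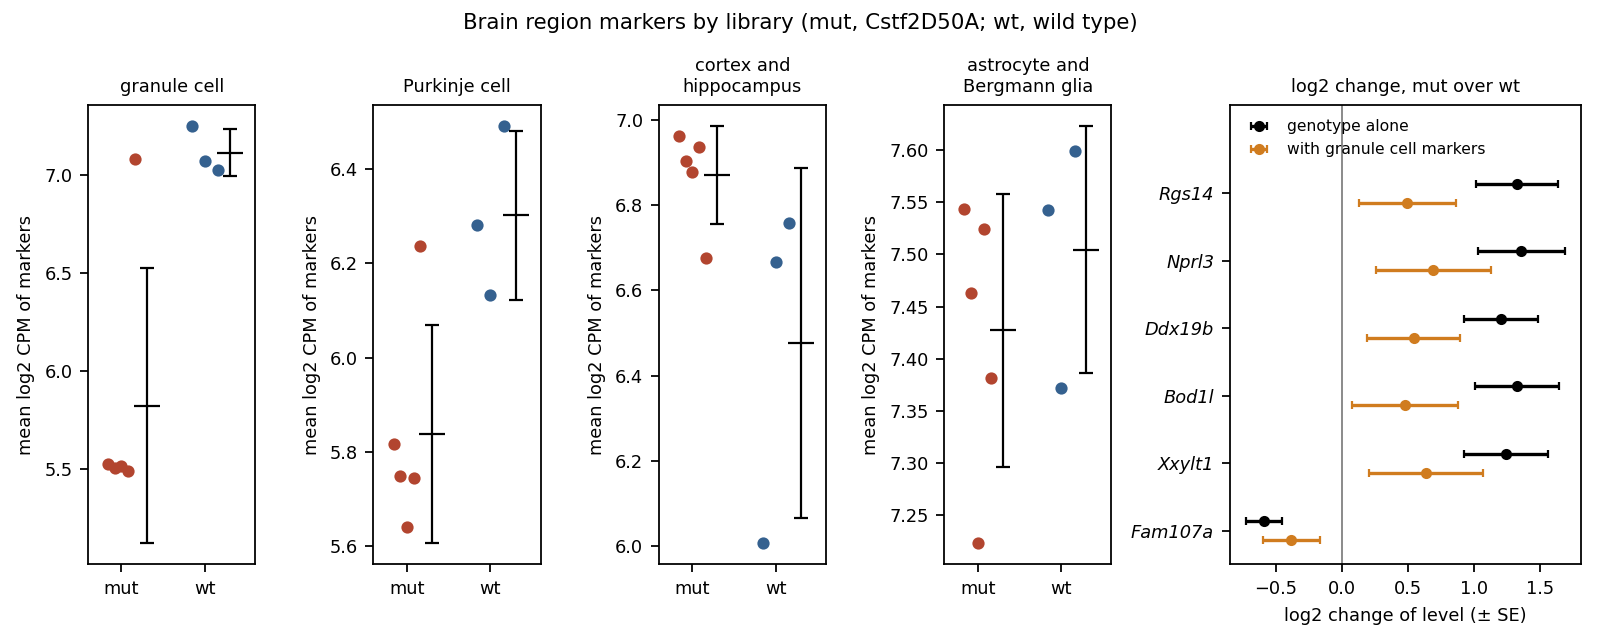
Left: mean log2 CPM in each library of 4 marker lists, for granule cells, for Purkinje cells, for cortex with hippocampus and for astrocytes with Bergmann glia, Cstf2D50A mice left of wild type mice. Bars are the mean and SD of each genotype. Right: edgeR log2 change in level of each gene with its SE, with and without the granule cell marker mean as a covariate; Cstf2D50A mouse 5 sits with the wild types in granule cell markers, and all 6 changes lie nearer 0 with the covariate.

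Markers of other cells were measured as well. The 8 hippocampal CA2 markers, the region in which Rgs14 is best known, summed to 1159 to 1259 CPM in Cstf2D50A mice and 1122 to 1193 CPM in wild type mice. Most of this sum was Stmn2, with a mean of 654 CPM in Cstf2D50A and 746 CPM in wild type. Adcy5, which is also on the striatal list, went the other way, with 238 CPM in Cstf2D50A and 105 CPM in wild type. Of the 8 markers, 3 had an edgeR log2 change above 0, with a median of -0.113. The sum joins opposite changes, and whether CA2 content differed was not tested. Fam107a is abundant in astrocytes and Bergmann glia. The 11 markers of these cells summed to 6893 to 7149 CPM in Cstf2D50A mice 1 to 4. Cstf2D50A mouse 5 had 8327 CPM, and wild type mice had 7553 to 9815 CPM. Striatal projection neuron markers (11 measured) summed to 1014 to 1132 CPM in Cstf2D50A mice 1 to 4. Cstf2D50A mouse 5 had 756 CPM, and wild type mice had 661 to 854 CPM. Of the 11 striatal markers, 7 had an edgeR log2 change above 0, with a median of 0.034. The largest were those of Adcy5 (1.18, SE 0.387) and Penk (0.80, SE 0.368). Penk had 249 ± 71.0 CPM in Cstf2D50A and 144 ± 69.9 CPM in wild type. The 14 oligodendrocyte markers summed to 3989 to 5009 CPM in Cstf2D50A and 4598 to 5970 CPM in wild type. Most of this sum was Mbp, with 2595 ± 242 CPM in Cstf2D50A and 2862 ± 301 CPM in wild type. The median log2 change of the list was -0.23, and 3 of the 14 were above 0. These were Pdgfra (1.53, SE 0.358), Cspg4 (1.15, SE 0.355) and Ugt8a (0.32, SE 0.281). The 5 microglia markers summed to 257 to 295 CPM in Cstf2D50A and 247 to 333 CPM in wild type. The 5 endothelial and pericyte markers summed to 366 to 697 CPM in Cstf2D50A and 333 to 517 CPM in wild type. The 6 choroid plexus and ependyma markers summed to 1171 to 1939 CPM in Cstf2D50A and 1454 to 1731 CPM in wild type, and the 4 blood markers to 4154 to 7124 CPM in Cstf2D50A and 4024 to 9342 CPM in wild type. The blood markers Hbb-b1 and Hbb-bs had the same values, each with a mean of 2859 CPM in Cstf2D50A and 3291 CPM in wild type. The blood sum therefore counts these reads 2 times. The genotypes overlapped in all of these sums, for the striatal and the astrocyte lists only through Cstf2D50A mouse 5. In mean log2 CPM, astrocyte markers had 7.22 to 7.54 in Cstf2D50A mice 1 to 4 and 7.37 to 7.60 in wild type mice. Striatal markers had 5.70 to 5.89 in Cstf2D50A mice 1 to 4 and 5.41 to 5.61 in wild type mice. Endothelial and pericyte markers had 5.83 to 6.22 in Cstf2D50A mice 1 to 4, 5.65 in Cstf2D50A mouse 5 and 5.33 to 5.82 in wild type mice. No marker was at 0 in any library. The part of these markers in the levels of the 6 genes was not tested.

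Partners of the 6 genes were read from lists of their pathways, and edgeR and DESeq2 called 0 genes of any list in level. Of 24 measured RGS proteins and G alpha partners, 4 were higher and 2 lower in Cstf2D50A at an unadjusted p under 0.05, and the median log2 change was 0.0029. Over all genes 7.29% were higher and 7.05% lower at that threshold, with a median of 0.0069. Gnai1 and Gnao1, G alpha subunits on which Rgs14 acts, had edgeR log2 changes of 0.63 (SE 0.309) and 0.37 (SE 0.189), Gnai3 had 0.29 (SE 0.257), and Hras, the small GTPase, had -0.37 (SE 0.163). Rgs7bp, which anchors RGS proteins of another subfamily at the membrane, was the 1 listed gene called in usage, by DESeq2 (log2 change 3.50, SE 0.819, adjusted p = 0.0260, where it called 0.19% of all genes higher and 0.0762% lower) and not by edgeR (adjusted p = 0.380). Its distal share was 95.1 ± 4.43% in Cstf2D50A and 67.2 ± 22.7% in wild type (SD, n = 5 and 3).

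The GATOR and amino acid sensing list, which surrounds Nprl3, had 28 of 41 genes measured, with 3 higher and 1 lower at an unadjusted p under 0.05 (7.29% and 7.05% of all genes) and a median log2 change of 0.023. Depdc5, another GATOR1 subunit, had 17.6 ± 3.59 CPM in Cstf2D50A and 14.7 ± 3.06 CPM in wild type (log2 change 0.25, SE 0.210). Mios and Wdr59, subunits of the opposing GATOR2, had -0.33 (SE 0.160) and 0.04 (SE 0.146), and Kptn, part of the KICSTOR scaffold, had -0.32 (SE 0.192). The mRNA export list around Ddx19b had 24 of 35 genes measured, with 3 higher and 2 lower, beside the same shares of all genes, and a median of 0.07. Gle1, which activates DDX19 at the pore, had -0.15 (SE 0.154), and Nupl2, a nucleoporin that binds Gle1, had 0.50 (SE 0.259). Nup88, a nucleoporin on the cytoplasmic face of the pore, had 0.99 (SE 0.354, edgeR adjusted p = 0.343).

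Around Bod1l, 18 of 27 genes of the SET1/COMPASS and replication fork list were measured, with 3 higher and 0 lower at an unadjusted p under 0.05 (7.29% and 7.05% of all genes) and a median log2 change of 0.05. Rif1, which guards replication forks and DNA breaks, had 6.36 ± 1.88 CPM in Cstf2D50A and 3.53 ± 1.72 CPM in wild type (log2 change 0.88, SE 0.386, edgeR adjusted p = 0.343). The paralog Bod1 had -0.15 (SE 0.124), and the COMPASS genes Setd1b and Wdr82 had 0.45 (SE 0.241) and -0.13 (SE 0.135). The Notch list around Xxylt1 had 17 of 34 genes measured, with 1 higher and 1 lower, beside the same shares of all genes, and a median of 0.01. Poglut1 adds the glucose to Notch and Gxylt1 and Gxylt2 the first xylose that XXYLT1 extends. Their log2 changes were -0.35 (SE 0.166), -0.25 (SE 0.150) and 0.01 (SE 0.273), and Pofut1, which adds fucose, had -0.04 (SE 0.122). Of 24 glucocorticoid-responsive genes, set beside Fam107a, 14 were measured, again with 1 higher and 1 lower, and a median of 0.09. Fkbp5, Tsc22d3, Per1 and Zbtb16, all induced by glucocorticoids, had 0.57 (SE 0.256), -0.08 (SE 0.121), -0.03 (SE 0.280) and 0.26 (SE 0.251).

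The genes most like each of the 6 were sought by Pearson correlation of log2 CPM over the 8 libraries among 7371 other genes averaging 50 or more reads. All points share the genotype contrast and the libraries' depth and tissue makeup, so the values are a description. Rgs14 was most like Prkar2b (r = 0.996), Atpaf2 (0.992) and Pdgfra (0.989), and Nprl3 was most like Add3 (0.996), Gpr17 (0.995) and Prkar2b (0.992). Xxylt1 shared Add3, Prkar2b and Gpr17 (0.993, 0.992 and 0.989), and Bod1l shared Atpaf2, Pdgfra and Prkar2b (0.985, 0.979 and 0.977). Ddx19b was most like Gfm1 (0.996), Arhgef28 (0.994) and Phyhipl (0.993), and Fam107a like Mrpl51 (0.976), Enho (0.957) and Cbr4 (0.957). Prkar2b, a regulatory subunit of protein kinase A, was among the 3 most alike for 4 of the 6 genes, with a log2 change of 0.64 (SE 0.184). Pdgfra, the receptor of oligodendrocyte precursors, was called by DESeq2 (adjusted p = 0.0186) and had an edgeR log2 change of 1.53 (SE 0.358).

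Of the genes that lie beside the 6 in the mouse annotation, those measured here adjoin Rgs14, Nprl3, Ddx19b and Xxylt1. These members had been chosen for large changes, so smaller ones beside them are a description from which nothing is read. Lman2, next to Rgs14, had an edgeR log2 change of 0.01 (SE 0.108). Mpg, which overlaps Nprl3, had -0.05 (SE 0.111), and Fam43a, next to Xxylt1, had 0.14 (SE 0.129). None of the 6 genes carried the same counts as another gene of its table.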

How the data were processed

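Libraries of polyadenylated 3′ ends were made from total brain RNA with the QuantSeq REV kit, per the labels' protocols, in which each read marks a transcript's end. Per the submitters' processing notes, the build was mm9, and STAR 2.5, HTSeq 0.6.0 and FastQC 0.11.3 are listed without a role. Raw counts, 1 whole number for each site in each library, were deposited by the authors as 2 tables, per the file headers, and positions are printed as those files give them, without a chromosome. The sources used here do not say how sites were picked, internal priming was handled or strand was used. Every column of counts was matched to a sample by its title (0 unused).

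Samples were grouped by genotype. Per the labels these are separate animals, no batch or pairing is named, and mouse numbers follow record order. Libraries of a genotype differed beyond sampling noise (chi-square per degree of freedom 3.98 to 114), so all 8 were kept.

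A gene was kept with a mean of at least 20 reads per library over its sites and a total of at least 10 at each. For levels, edgeR's quasi-likelihood test was run with TMM scaling. Single sites were tested with the library sizes of the sums, and usage as the interaction of site and genotype with the library as a block. p-values were Benjamini-Hochberg adjusted over all genes at 0.05, and SEs were derived from the F statistic. Shares have Wilson 95% intervals, which cover counting error only. The counting error of a gap between 2 libraries is the Poisson error of both counts, and log2 CPM used a prior count of 2. Alternatives were DESeq2, library totals, no filter, limma-voom, each library left out and a granule cell marker covariate. The versions were DESeq2 1.42.0, limma 3.58.1, edgeR 4.0.16 and R 4.3.3. Scripts were tested on simulated data. DESeq2 left the adjusted p undefined for 5 genes in the level of the first table and 2 in that of the second. For single sites it was undefined for 1232 of the first table and 3725 of the second. Neighbouring genes came from RefSeq (GRCm38.p6), in which all 6 symbols matched. The 6 genes and all lists were chosen with earlier results of these data known. Named genes were the 6, the 3 most alike to each, and the first 4 measured of each pathway list with any called gene. Cstf2, Wwtr1 (the first gene outside the set) and the neighbouring genes stand outside this rule. So do the markers Slc17a7, Stmn2, Adcy5, Penk, Mbp, Cspg4, Ugt8a, Hbb-b1 and Hbb-bs.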

Additional observations from a re-analysis of the deposited data

Results flagged for a closer look

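In 3 of 32 groups of 5 Cstf2D50A values, 1 library lay far from the other 4 by Dixon's criterion, which chance meets in about 1 of 20 groups, and the library was Cstf2D50A mouse 5 each time. At the proximal site of Rgs14 it had 16.7 CPM, and the other 4 had 31.3 to 36.9 CPM. In the sum of both Xxylt1 sites it had 8.52 CPM, and the others had 13.3 to 14.3 CPM. At the distal site of Xxylt1 it had 6.37 CPM, and the others had 11.0 to 12.7 CPM. The 3 values come from 2 genes of the same library, so they do not count as separate observations. The same mouse had granule cell markers at 7.08 log2 CPM, and the other Cstf2D50A mice had 5.49 to 5.53; the part of this in the values was not tested.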

How the results depend on the processing

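The sign of a gene's change was kept in 305 of 314 alternatives, including 80 of 80 for level in the first table and 26 of 26 in the second. It turned in the 9 others, all in usage or single sites. In usage of Fam107a the log2 change was 0.0123 without wild type mouse 2 (range over single libraries left out -0.392 to 0.0123). At the distal site of Rgs14 it was -0.04 without Cstf2D50A mouse 2 and -0.16 without wild type mouse 3 (range -0.161 to 0.328), and at the distal site of Nprl3 0.0458 without Cstf2D50A mouse 2 and 0.0352 without mouse 3 (range -0.252 to 0.0458). With the granule cell marker covariate, which for sites and usage was added after seeing the data, it was -0.28 for Bod1l usage, 0.31 for the proximal Ddx19b site, -0.0193 for the distal Rgs14 site and 0.22 for the distal Nprl3 site. The cause was not tested.

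Over all genes edgeR called 0 in each comparison. DESeq2 called 26 in level, 21 in usage and 32 single sites of the first table, and 0 in level and 5 in usage of the second. With each library left out in turn, edgeR called 0 to 68 in level, 0 to 1 in usage and 0 to 84 single sites of the first table, and 0 to 65 in level and 0 to 236 in usage of the second. The counts above 0 came without Cstf2D50A mouse 5 (68, 84, 65 and 236) and without wild type mouse 3 (1 in usage and 46 single sites of the first table, 161 in usage of the second). The covariate fit had 0 calls in level and 44 genes at an unadjusted p under 0.05. No paired analysis was possible because the animals' numbers follow record order and the labels name no pairing.

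The wild type group of 3 animals and the counts of Bod1l and Nprl3, down to 24 and 30 reads in a library, limit precision.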
